A study of Mus musculus with 12 samples.

Results

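The Reg family of C-type lectins was examined in the colon of mice with and without interleukin-10 (IL-10) and STING. The genes taken were Reg3a, Reg3b, Reg3g, Reg3d and Reg4. All 5 were found among the 22180 genes that the array's annotation names with exactly 1 symbol, each through 1 probe set (17459752 for Reg3a, 17459744 for Reg3b, 17467973 for Reg3g, 17467965 for Reg3d and 17400853 for Reg4). Total RNA of the colon had been hybridised to Affymetrix whole-transcript arrays, and the 12 samples fall into 4 genotypes with 3 arrays each. The double knockout (DKO) was IL10-/- STING-/-, the IL-10 knockout (IL10KO) was IL10-/- STING+/+, the STING knockout (SKO) was IL10+/+ STING-/-, and the wild type (WT) was IL10+/+ STING+/+. The labels name no treatment, and the sources used here give neither the age nor the strain of the mice. They also do not say that each sample came from its own animal, so the p-values speak for the spread among these samples, which may be technical. IL-10 dampens immune responses to gut bacteria, and colitis arises spontaneously in mice that lack it. STING relays the sensing of cytosolic DNA to interferon and inflammatory genes.

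Reg proteins are small secreted lectins. In the mouse gut, Reg3g binds peptidoglycan and kills Gram-positive bacteria, and Reg3b acts on Gram-negative bacteria. Both are made by epithelial cells and are known to be induced by IL-22, through STAT3, and by bacterial signals through MyD88, so they are widely read as signs of an epithelial defence response. Reg3b is also known as pancreatitis-associated protein, and Reg1, Reg2 and Reg3d are known from the pancreas. Reg4 marks deep crypt secretory cells of the colon, which lie among the stem cells, and some enteroendocrine cells.

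The genes of the Reg1, Reg2 and Reg3 groups stand next to each other on mouse chromosome 6, in the order Reg3b, Reg3d, Reg3a, Reg2, Reg1 and Reg3g, with 1 pseudogene between Reg1 and Reg3g. Reg4 lies apart on chromosome 3. Reg3b and Reg3g passed the same tests in the data below, and Reg3d, the direct neighbour of Reg3b, passed none. For this reason the 250 bases before the start of these 3 genes are shown, as RefSeq gives them on GRCm38.p6, read 5′ to 3′ in the direction of the gene. Capitals mark the letters of a STAT-type motif, TTCNNNGAA, or of a TATA box, TATAAA. Both were searched on both strands, and the first reads the same on either.
Reg3b, chr6:78370635-78370884, plus strand: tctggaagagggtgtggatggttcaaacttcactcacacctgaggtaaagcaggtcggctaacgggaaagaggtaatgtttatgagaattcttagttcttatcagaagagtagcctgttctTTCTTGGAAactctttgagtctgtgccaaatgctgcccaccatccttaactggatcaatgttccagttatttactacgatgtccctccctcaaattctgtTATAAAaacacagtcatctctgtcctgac
Reg3g, chr6:78468875-78469124, minus strand: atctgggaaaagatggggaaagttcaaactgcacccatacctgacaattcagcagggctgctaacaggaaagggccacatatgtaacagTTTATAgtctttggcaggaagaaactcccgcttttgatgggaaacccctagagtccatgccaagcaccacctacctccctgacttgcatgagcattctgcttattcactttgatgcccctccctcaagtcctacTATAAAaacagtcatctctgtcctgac
Reg3d, chr6:78378866-78379115, minus strand: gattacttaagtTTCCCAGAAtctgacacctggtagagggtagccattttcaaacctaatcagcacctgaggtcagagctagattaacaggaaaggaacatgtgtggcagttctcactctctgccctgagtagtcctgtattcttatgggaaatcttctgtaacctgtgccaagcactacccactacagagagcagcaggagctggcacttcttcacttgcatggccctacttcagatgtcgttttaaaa
Reg3b and Reg3g shared 68.9% of aligned positions over these bases, the highest identity of the 21 pairs among the 7 Reg genes, which otherwise lay between 47.8% and 58.5%. The last 20 bases before the start, ACAGTCATCTCTGTCCTGAC, were the same in both. Each had TATAAA just upstream of its start, at 29 to 24 bases before it in Reg3b and at 27 to 22 in Reg3g, and Reg3g held the letters once more on the other strand. Reg1 and Reg2 held them too, each at 30 to 25 bases before the start. TTCNNNGAA occurred once in Reg3b (TTCTTGGAA, 129 to 121 bases before the start) and once in Reg3d (TTCCCAGAA, 238 to 230 bases before it), and not in this window of the other 5 genes. Of all 32851 promoters of the same length, 7.0% held TTCNNNGAA and 12.4% held TATAAA. These matches describe letters only.

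Both deleted genes were read first. Il10 was not lower in the knockouts on its probe set, with 4.60, 4.49 and 4.33 in DKO, 4.59, 4.87 and 5.47 in IL10KO, 3.82, 3.65 and 3.70 in SKO, and 3.65, 3.59 and 3.80 in WT. It was higher in IL10KO than in WT by 1.29 ± 0.19 (limma adjusted p = 0.00139). Every DKO and IL10KO array lay above every SKO and WT array. The DKO differences did not pass against WT (0.79, limma adjusted p = 0.467) or SKO (0.75, limma adjusted p = 0.394). Whether these probes lie in the deleted part of Il10 was not tested, so its loss could not be checked with them. The library labelled WT replicate 3 had a Sting1 signal of 4.56, near the 4.13 to 4.40 of DKO and SKO and below the 6.87, 8.09 and 7.33 of IL10KO and the 7.51 and 6.40 of the other WT arrays, and correlated most closely with SKO replicate 1 (r = 0.9967 over all genes). The mean log2 signal of 18 pancreatic acinar markers reached 8.02 and 10.65 in WT replicates 1 and 2, against 4.86 to 5.62 in the other 10 arrays. That of 18 stratified squamous markers was 6.62 and 6.79 in IL10KO replicates 2 and 3, against 4.25 to 5.15 in the other 10. Colonocyte markers were bright in every array, with a mean over 15 genes of 10.24 to 10.49 in IL10KO and 10.65 to 10.97 in the other genotypes. In tissue RNA, fewer cells of a type and less RNA per cell cannot be told apart.

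Reg3b and Reg3g rose steeply in IL10KO against WT, and neither passed a test between DKO and WT. Reg3g had log2 signals of 2.81, 3.12 and 3.14 in DKO, 10.20, 8.76 and 9.16 in IL10KO, 2.84, 3.11 and 2.82 in SKO, and 3.09, 2.71 and 2.65 in WT. The 3 IL10KO arrays stood far above the other 9, which formed 1 narrow band. Reg3b had log2 signals of 4.85, 4.22 and 4.89 in DKO, 12.63, 10.12 and 11.11 in IL10KO, 4.15, 4.59 and 3.86 in SKO, and 4.03, 6.67 and 4.33 in WT. Here too every IL10KO array lay above every array of the other genotypes, and the next highest was WT replicate 2, the array with the strongest acinar signal. Within its own array, Reg3g was brighter than 95% of genes in IL10KO and than 9.2% to 11.7% in the other genotypes, on average over 3 arrays.

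**Figure D1:**
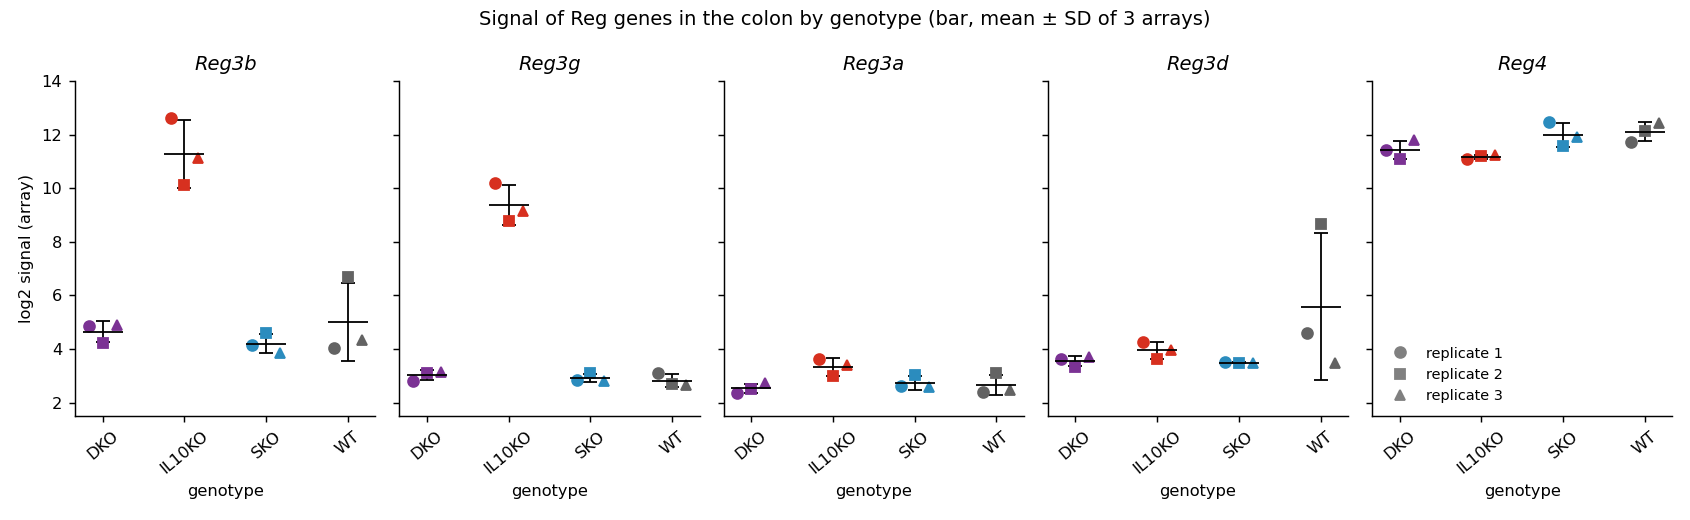
Log2 signal (vertical axis) of each Reg gene in each array, by genotype (horizontal axis); symbols mark replicates, and the bar and whiskers give the mean ± SD of 3 arrays. Reg3b and Reg3g stand at 10.12 to 12.63 and 8.76 to 10.20 in IL10KO, above all other arrays, whereas Reg4 is bright in all genotypes and Reg3d is high in WT replicate 2 alone.

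In IL10KO against WT, Reg3g averaged 9.37 ± 0.74 in IL10KO and 2.81 ± 0.24 in WT (SD, n = 3 each). The difference was 6.56 ± 0.28 on the log2 scale (± SE throughout for differences; limma adjusted p = 2.33e-08), or 94.3-fold (95% interval 62.3 to 143). Reg3b averaged 11.29 ± 1.26 in IL10KO and 5.01 ± 1.44 in WT (SD, n = 3 each), a difference of 6.28 ± 0.63 (limma adjusted p = 0.000104), or 77.5-fold (95% interval 30.2 to 199). By size these rises ranked 1 and 3 among all genes tested. The serum amyloid gene Saa3 lay between them at 6.39 ± 0.19, so these places are not fixed. Reg3g in WT was dimmer than the lower quartile of each array, which ran between 3.90 and 4.26. No detection calls were used here, and the fold of Reg3g is therefore read as a lower bound. In all, 2 of the 5 Reg genes rose and 1, Reg4, fell between IL10KO and WT, with a median difference of 0.68, against a median of 0.03 over all genes. Of all genes 8.14% were called, 3.12% as higher and 5.01% as lower.

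The rises were also computed without the arrays that stood apart. Without the library labelled WT replicate 3 they were 5.94 for Reg3b and 6.48 for Reg3g (limma adjusted p = 0.000481 and 3.71e-07). Without WT replicates 1 and 2 together, the high acinar arrays, they were 6.96 and 6.72 (limma adjusted p = 0.000425 and 1.1e-05). The 1 WT array left there is the library labelled WT replicate 3, with Sting1 at the knockout level, and it is assumed to vary like the other groups. This and each later value without both high acinar arrays rests on that library alone for WT, and a comparison of IL10KO with SKO cannot be told apart from it. Without IL10KO replicates 2 and 3 together, an omission chosen after seeing the data, the differences were 7.62 and 7.39. They rest on IL10KO replicate 1 alone, the highest array for both genes, and are given as values only.

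The IL10KO arrays differed among themselves in the same order for each Reg3 gene. Replicate 1 was the highest and replicate 2 the lowest for Reg3a, Reg3b, Reg3g and Reg3d, and Reg3b spanned 10.12 to 12.63. The lower quartiles of these arrays ran in the same order, at 4.26, 4.05 and 4.09 in replicates 1, 2 and 3. So did the dim Reg2, at 2.95, 2.33 and 2.62. Reg3a and Reg3d lay near or below these quartiles, and their order cannot be told apart from that of the low end. The mean signal of 16 neutrophil markers ran the other way, at 5.68 in IL10KO replicate 1, 7.09 in replicate 2 and 6.28 in replicate 3, against 4.27 to 4.43 in the other 9 arrays. The squamous marker mean was also lowest in IL10KO replicate 1, at 5.08. With 3 arrays these orders are given as values and were not tested.

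In DKO against IL10KO, 3 of the 5 Reg genes were lower and none was higher, with a median difference of -0.80 against -0.04 over all genes. The 3 were Reg3b, Reg3g and the dim Reg3a, whose call was lost in most omissions of a single array. Of all genes 5.79% were called, 3.34% as higher and 2.45% as lower. Reg3b averaged 4.65 ± 0.38 in DKO and 11.29 ± 1.26 in IL10KO (SD, n = 3 each). It fell by 6.63 ± 0.63 on the log2 scale (limma adjusted p = 0.00012), or 99.3-fold (95% interval 38.7 to 255). Reg3g averaged 3.02 ± 0.19 in DKO and 9.37 ± 0.74 in IL10KO (SD, n = 3 each). It fell by 6.35 ± 0.28 (limma adjusted p = 3.56e-08), or 81.7-fold (95% interval 54.0 to 124). Reg3g in DKO was also under the lower quartile of each array, so this fold too is read as a lower bound. These were the 2 largest falls among all genes by measured difference, and their order is not fixed. The serum amyloid gene Saa3 lay close to Reg3g at -6.31 ± 0.19, so which genes hold these places is not fixed either. IL10KO arrays are shared with the comparison against WT, so the falls of Reg3b and Reg3g and their rises above are not independent in size.

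Where STING was absent, Reg3b and Reg3g passed no test of IL-10 loss. Between DKO and SKO, Reg3b differed by 0.45 (95% interval -0.91 to 1.81, limma adjusted p = 0.998) and Reg3g by 0.10 (95% interval -0.50 to 0.70, limma adjusted p = 0.998). The upper limit for Reg3b amounts to a rise of 3.51-fold. Reg3g was under the lower quartile of each array in both genotypes, so its interval bounds the difference in signal and not that in expression. In this comparison 0 of 5 Reg genes were called by limma, while 0.0451% of all genes were (0.0361% as higher and 0.00902% as lower). The change with loss of IL-10 was then compared between mice without and with STING, as the DKO minus SKO difference less the IL10KO minus WT difference. It was -6.46 ± 0.39 for Reg3g (limma adjusted p = 2.69e-06) and -5.82 ± 0.89 for Reg3b (limma adjusted p = 0.0118). By size these ranked 1 and 3 among all genes, of which 0.645% were called, 0.28% as higher and 0.365% as lower. Saa3 lay between them at -6.22, so these places are not fixed either. No other Reg gene passed, and the value for Reg3a was -0.88 ± 0.30 (limma adjusted p = 0.207). Between DKO and WT, Reg3g differed by 0.21 (95% interval -0.39 to 0.80) and Reg3b by -0.36 (95% interval -1.72 to 1.002), and between SKO and WT by 0.11 (95% interval -0.49 to 0.70) and -0.81 (95% interval -2.17 to 0.55). Without WT replicate 2, the strongest acinar array, the Reg3b values were 0.47 between DKO and WT and 0.02 between SKO and WT, so that 1 library sets both signs. None of these passed (limma adjusted p = 1 for each), while 0.0451% of all genes were called between DKO and WT (0.0406% as higher and 0.00451% as lower) and 0% between SKO and WT. The deleted gene Sting1 was not called in either of these comparisons, so a missing call there does not show a lack of change. Reg3d differed by -2.03 between DKO and WT (95% interval -3.91 to -0.15) and by -2.09 between SKO and WT (95% interval -3.97 to -0.21). Neither was called, and without both high acinar arrays the values were 0.09 and 0.02. Arrays of the compared genotypes did not overlap for 9.4% of genes between DKO and WT, 6.21% between SKO and WT and 11.1% between DKO and SKO, and none of the 5 Reg genes was among them. For Reg3g the order of the genotype means was thus IL10KO, DKO, SKO and WT, of which only IL10KO differed from a neighbour beyond the spread.

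**Figure D2:**
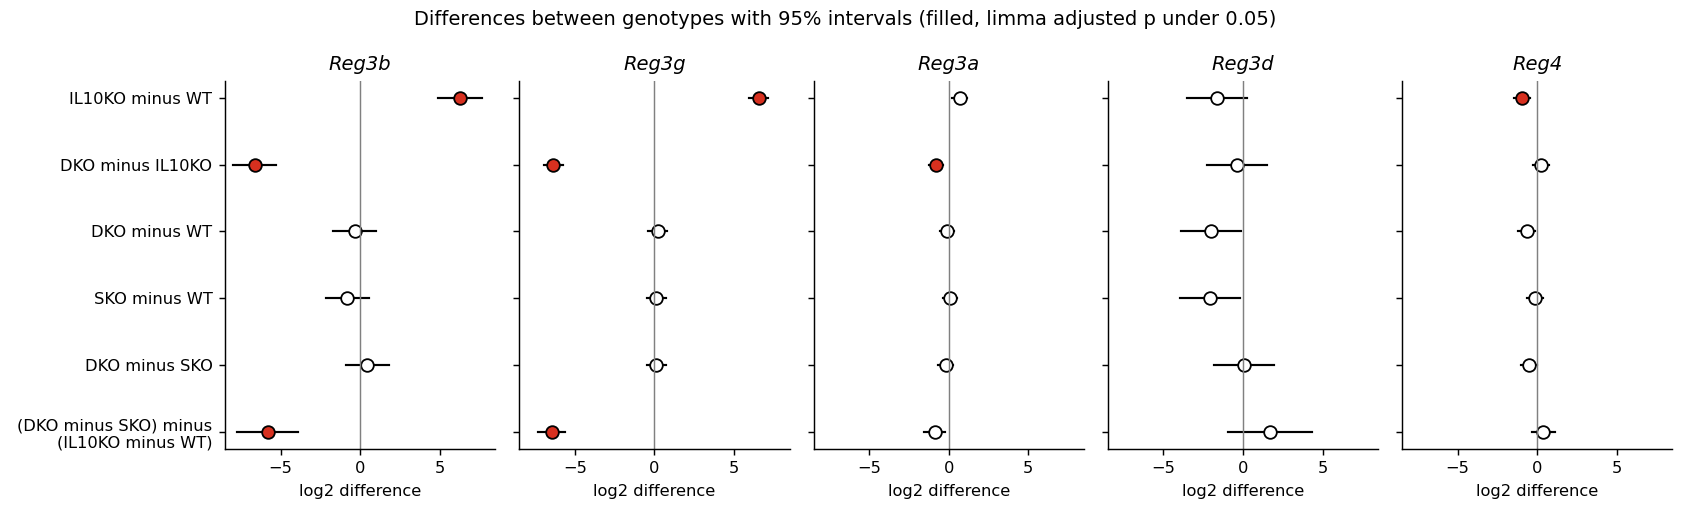
Log2 differences (horizontal axis) between genotypes, for each Reg gene, with 95% intervals; the bottom line is DKO minus SKO less IL10KO minus WT; filled points have a limma adjusted p under 0.05. Reg3b and Reg3g lie near 6 to the right for IL10KO minus WT and near 6 to the left for DKO minus IL10KO, and their intervals cross 0 in the 3 comparisons among DKO, SKO and WT.

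Reg3a was dim in every genotype. Its log2 signals were 2.37, 2.50 and 2.72 in DKO, 3.61, 2.98 and 3.38 in IL10KO, 2.61, 3.03 and 2.56 in SKO, and 2.39, 3.09 and 2.47 in WT. Every value was under the lowest of the arrays' lower quartiles. These quartiles were themselves higher in IL10KO (4.26, 4.05 and 4.09) than in DKO (3.90, 3.94 and 4.03). Within each of these genotypes Reg3a followed the order of the quartiles. The part of this shift of the low end in the differences of Reg3a was not tested beyond the quantile normalization given below. The IL10KO arrays stood above the 3 DKO arrays and overlapped SKO and WT; 27.2% of genes did not overlap between DKO and IL10KO. Reg3a was lower in DKO than in IL10KO by 0.80 ± 0.21 (limma adjusted p = 0.0431), a call that ended in 8 of 12 omissions of a single array. The omitted arrays were IL10KO replicates 1 and 3, each DKO replicate, the library labelled WT replicate 3 and SKO replicates 1 and 3, with limma adjusted p up to 0.159. It was called in 9 of 21 alternatives in all, and also ended with quantile normalization (-0.68, limma adjusted p = 0.0577), only the genotypes compared (limma adjusted p = 0.064), array weights (limma adjusted p = 0.0537) and Holm adjustment (adjusted p = 1). Against WT, IL10KO differed by 0.68 ± 0.21 (limma adjusted p = 0.0643). This difference passed without IL10KO replicate 2 (0.85, limma adjusted p = 0.0256) or WT replicate 2 (0.90, limma adjusted p = 0.0337). It was called in 3 of 21 alternatives in all, the third of them not an omission of a single array. The array's probe sequences were not used here, so how far these probe sets tell Reg3a, Reg3b, Reg3d and Reg3g apart was not tested.

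Reg3d, known in the mouse as a relative of the hamster islet neogenesis protein, was high where pancreatic markers were high. Its log2 signals were 3.64, 3.33 and 3.69 in DKO, 4.26, 3.61 and 3.96 in IL10KO, 3.51, 3.48 and 3.49 in SKO, and 4.61, 8.68 and 3.47 in WT. The value of 8.68 belongs to WT replicate 2, and 4.61 to WT replicate 1, the 2 arrays with high acinar markers. Reg1 read 7.66 and 12.54 in WT replicates 1 and 2, against 2.65 in the library labelled WT replicate 3 and 2.67 to 3.80 over the 9 arrays of the other genotypes. Reg2 read 7.06 in WT replicate 2 and 2.13 to 2.95 in the other 11 arrays. None of Reg3d, Reg1 and Reg2 passed in any comparison with all arrays, and the difference of Reg3d between IL10KO and WT was -1.64 (95% interval -3.52 to 0.24, limma adjusted p = 0.252). Without WT replicates 1 and 2 it was 0.48 (limma adjusted p = 0.456). Of the 18 acinar markers, 6 fell in IL10KO against WT, led by the pancreatic lipase-related gene Pnliprp1 (-5.11), the carboxypeptidase gene Cpb1 (-5.01), Pnliprp2 (-4.58) and the colipase gene Clps (-4.53). The number was 16 without the library labelled WT replicate 3 and 3 without the 2 high squamous arrays. In DKO against IL10KO, where no array stood out for acinar markers, 2 of the 18 rose and none fell. They were Sycn (2.01) and Clps (1.90). The part of the pancreatic signal in the WT value of Reg3b was not tested beyond the omissions above.

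**Figure D3:**
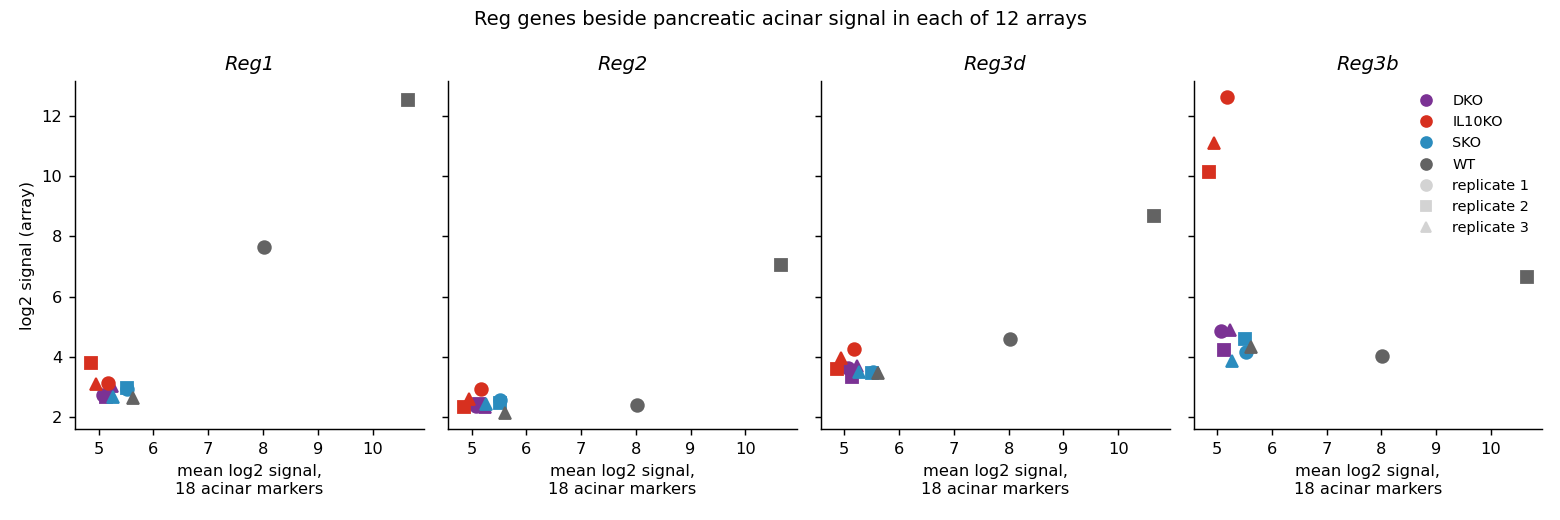
Log2 signal (vertical axis) of Reg1, Reg2, Reg3d and Reg3b in each array against the mean log2 signal of 18 pancreatic acinar markers in the same array (horizontal axis); colours mark genotypes and symbols replicates. WT replicate 2, at 10.65 on the horizontal axis, is the highest array for Reg1, Reg2 and Reg3d, whereas the 3 IL10KO arrays are the highest for Reg3b at acinar means of 4.86 to 5.17.

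Reg4 was bright in all arrays and went the other way from Reg3b and Reg3g. Its log2 signals were 11.43, 11.10 and 11.78 in DKO, 11.09, 11.21 and 11.23 in IL10KO, 12.46, 11.59 and 11.90 in SKO, and 11.74, 12.15 and 12.45 in WT. The IL10KO arrays lay close together and below every WT and SKO array, while DKO overlapped all 3. Groups that do not overlap were common between IL10KO and WT, at 30% of genes. Reg4 was lower in IL10KO (11.18 ± 0.07) than in WT (12.11 ± 0.35; SD, n = 3 each), by -0.93 ± 0.23 (limma adjusted p = 0.0278), or 1.91-fold (95% interval 1.35 to 2.71). The call ended without IL10KO replicate 1, IL10KO replicate 3, WT replicate 2 or the library labelled WT replicate 3 (limma adjusted p = 0.0745, 0.0625, 0.0854 and 0.109). Unlike for Reg3b and Reg3g, no difference was called between DKO and IL10KO (0.26, 95% interval -0.24 to 0.76, limma adjusted p = 0.51), nor between mice without and with STING in the change with loss of IL-10 (0.39, 95% interval -0.32 to 1.10, limma adjusted p = 0.567). The difference was -0.55 between DKO and SKO (95% interval -1.05 to -0.04, limma adjusted p = 0.998) and -0.68 between DKO and WT (95% interval -1.18 to -0.17, limma adjusted p = 1), and neither passed.

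Of 20 goblet and deep crypt secretory markers, 7 fell and 1 rose in IL10KO against WT, with a median of -0.30 against 0.03 over all genes. The chloride channel regulator Clca1 (-1.47), the mucus protein gene Fcgbp (-1.25) and the calpain gene Capn9 (-0.93) fell, and Cd177, known mostly from neutrophils, rose by 1.48. Cd177 averaged 10.47 in DKO, 10.43 in IL10KO, 9.15 in SKO and 8.94 in WT. Unlike the neutrophil markers, it was called higher in DKO than in WT (1.52, limma adjusted p = 0.0405). Between DKO and IL10KO it differed by 0.04 and was not called. The number that fell dropped to 3 on leaving out either WT replicate 2 or the library labelled WT replicate 3, and to 2 on leaving out the 2 high acinar arrays. In DKO against IL10KO 6 of them rose and none fell, with Clca1 at 1.41, and 3 rose without DKO replicate 1. The mean of this list was 10.12 to 10.17 in DKO, 9.67 to 9.74 in IL10KO, 10.05 to 10.28 in SKO and 9.82 to 10.27 in WT. Of 19 enteroendocrine markers, 4 fell and 1 rose in IL10KO against WT (median -0.13), among them the hormone gene Insl5 (-1.25) and the serotonin synthesis gene Tph1 (-0.87). The number that fell dropped to 2 on leaving out either WT replicate 2 or the library labelled WT replicate 3, or both high acinar arrays. The number that rose was 2 without IL10KO replicate 1 or 2 and 0 without both high acinar arrays. Insl5 (1.40) and Tph1 (0.79) were higher in DKO than in IL10KO, where 4 of the list rose and 1, Nts, fell, a call lost in 6 single omissions of an array. That count of rises was 1 without DKO replicate 1 and 2 without DKO replicate 2. The mean of the colonocyte markers was also lower in every IL10KO array than in the other genotypes. The part of any of these cells in the difference of Reg4 was not tested.

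The signals known to act upstream of Reg3b and Reg3g were read from a list of 34 genes, of which 32 were measured. It holds cytokines and receptors of the IL-22, IL-23, IL-17, IL-6 and IL-1 groups, Tnf, Toll-like receptors with Myd88, the kinases and the factor Stat3 of the JAK-STAT path, and Ahr. In IL10KO against WT 7 rose and 1 fell, with a median of 0.10 against 0.03 over all genes. Il1b rose by 3.46 ± 0.44 (limma adjusted p = 0.000548), Il11, a STAT3-activating cytokine of the IL-6 family, by 1.96 ± 0.22 (limma adjusted p = 0.000254), Il6 by 1.39 ± 0.28 (limma adjusted p = 0.00902) and Tnf by 1.25 ± 0.20 (limma adjusted p = 0.00312). Il22 itself, named after its values were seen, was very dim, with means of 1.71 in DKO, 2.06 in IL10KO, 1.70 in SKO and 1.70 in WT, and its difference of 0.36 between IL10KO and WT did not pass (limma adjusted p = 0.191). The number that rose was 3 without both high acinar arrays. The number that fell was 4 without IL10KO replicate 2, 3 without SKO replicate 2, 2 without DKO replicate 3 or SKO replicate 3, and 0 without IL10KO replicate 1, IL10KO replicate 3 or WT replicate 2. In DKO against IL10KO 6 fell and none rose, with Il1b at -3.49, Il11 at -1.82, Il6 at -1.38 and the IL-1 receptor gene Il1r1 at -0.98, and 2 rose without IL10KO replicate 2.

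Genes known to be induced by IL-22 or STAT3 in gut epithelium were read next. Of 28 measured genes other than the Reg genes, 11 rose and none fell in IL10KO against WT (median 0.41; 1 fell without IL10KO replicate 2, SKO replicate 2 or SKO replicate 3), and 10 fell and none rose in DKO against IL10KO (median -0.34 against -0.04 over all genes). Saa3, a serum amyloid A protein, averaged 4.28 ± 0.36 in DKO, 10.59 ± 0.10 in IL10KO, 4.11 ± 0.31 in SKO and 4.20 ± 0.08 in WT (SD, n = 3 each). Lrg1, a glycoprotein induced in inflammation, rose by 3.36 in IL10KO against WT and fell by 3.40 in DKO against IL10KO. S100a8 and S100a9, the subunits of calprotectin, rose by 4.41 and 3.11 in IL10KO against WT. Both are also neutrophil genes, and of the 16 neutrophil markers 13 rose in IL10KO against WT and 13 fell in DKO against IL10KO. Between DKO and SKO none of the 28 was called by limma, as against 0.0451% of all genes. The test of the change with loss of IL-10 between mice without and with STING was passed by 6, all in the direction of Reg3b and Reg3g. Of all genes 0.645% passed it, 0.365% in that direction. The list was chosen with earlier results of these data known. Without both high acinar arrays, 7 of the 28 rose in IL10KO against WT, 2 passed the test of the difference, and 5 of the 16 neutrophil markers rose. The part of neutrophils in the values of these lists was not tested.

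**Figure D4:**
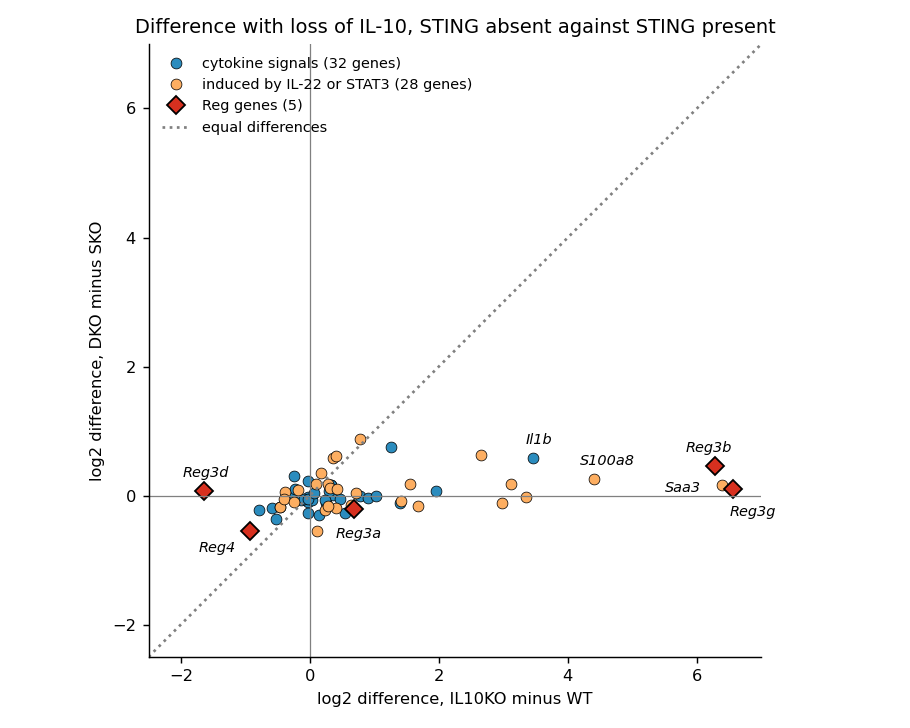
Log2 difference of DKO minus SKO (vertical axis) against IL10KO minus WT (horizontal axis) for the 5 Reg genes, 32 cytokine signal genes and 28 genes induced by IL-22 or STAT3; the dotted line marks equal differences. Reg3d lies at the far left; Reg3b, Reg3g and Saa3 lie beyond 6 on the horizontal axis and below 0.5 on the vertical axis, and Reg4 lies below 0 on both.

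The genes whose signals followed the Reg genes most closely over the 12 arrays were found among 17231 named genes by Pearson correlation, as a description, since all share the same arrays and the IL10KO arrays stand apart. For Reg3g they were Saa3 (r = 0.99), Mmp7 (0.98), a metalloproteinase known to process antimicrobial peptides, Fes (0.97), Nol4 (0.97) and Lrg1 (0.97). For Reg3b they were Hp (0.98), the gene of haptoglobin, Zfp985 (0.97), Lgi2 (0.96), Clstn2 (0.96) and Egfl7 (0.96). For Reg3d they included the pancreatic enzyme genes Cela3b (0.99) and Amy2b (0.99), with Tmed11 (0.99), Cuzd1 (0.98) and Tff2 (0.98). For Reg4 they were Hdac4 (0.91), Slc6a11 (0.90), Pnliprp2 (0.90), Cracr2a (0.90) and Itln1 (0.88). For the dim Reg3a they were Col5a3 (0.96), Lefty2 (0.95), Nr0b2 (0.95), Serpind1 (0.95) and Il1f10 (0.95), none of which was called between IL10KO and WT. Extl3, reported as a receptor for Reg proteins, averaged 8.30 ± 0.18 in DKO, 7.86 ± 0.22 in IL10KO, 8.34 ± 0.49 in SKO and 8.35 ± 0.08 in WT (SD, n = 3 each), and no comparison of it passed.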

How the data were processed

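Gene expression in 12 colon samples was measured on Affymetrix arrays labelled with the WT PLUS kit, per the labels' protocols. The deposited values are log2 signals per probe set, which the authors made with Expression Console; the submitters' processing notes name Affymetrix Expression Console at version 1.3.1.187. The sources used here do not give the background correction or normalization, and the log2 scale rests on the range of the values and their similar medians. Precision is limited by the number of arrays.

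The genotype labels set the groups; replicate numbers follow accession order and only name samples. Of 41345 probe sets, 23521 had exactly 1 symbol in the platform annotation, and the brightest probe set by mean over 12 arrays stood for each of 22180 genes, unfiltered. One linear model over the 12 arrays was fitted in R 4.3.3 with limma 3.58.1 (a mean per genotype, 8 residual degrees of freedom, empirical Bayes). Calls used a Benjamini-Hochberg adjusted p under 0.05 over all genes, 2-sided. The steps were tested on simulated data. As alternatives, arrays were centred on their medians or quantile normalized, the dimmest genes were dropped, probe sets were averaged per gene, only the genotypes compared were fitted, and a trended and robust prior, array weights or Holm adjustment was used. Others were leaving out each array, the high acinar arrays or the high squamous arrays (list mean over 2 log2 units above the median array). Promoter sequences and gene order came from RefSeq tables (GRCm38.p6), in which all 7 Reg genes matched. Promoters were aligned globally for identity.

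The members and gene lists were chosen with earlier results of these data known. The text names the Reg genes in every comparison, Reg1, Reg2, Extl3, Il10 and Sting1, up to 4 called genes of each list with the largest difference in either main comparison, and the 5 genes most correlated with each Reg gene, without small RNAs, receptor segments, and predicted or clone symbols.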

Additional observations from a re-analysis of the deposited data

Results flagged for a closer look

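The effect of IL-10 loss differed between STING genotypes for 2 Reg genes by the test of the difference itself. For Reg3g the IL-10 effect was 0.10 where STING was absent (DKO against SKO) and 6.56 where it was present (IL10KO against WT), a difference of -6.46 (limma adjusted p = 2.69e-06). The sets of arrays did not overlap between IL10KO and WT, which held for 30% of all genes. For Reg3b the effects were 0.45 and 6.28, a difference of -5.82 (limma adjusted p = 0.0118). With 3 arrays a genotype, no test for an outlying value within a group was made.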

How the results depend on the processing

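Over 22 alternatives, Reg3g and Reg3b were called in the same direction in every setting for IL10KO against WT and for DKO against IL10KO, where leaving out the high acinar or high squamous arrays leaves 1 array of WT or IL10KO. Of 173 alternative values of called differences, 151 were still called and 0 had the other sign. Of 470 values of uncalled differences, 19 had the other sign, all uncalled. For the difference of IL-10 effects, 1 Reg gene in place of 2 was called with the trended and robust prior and 1 with Holm adjustment, since Reg3b reached an adjusted p of 0.0547 and 0.354. Between DKO and SKO, 1 Reg gene in place of 0 was called with array weights (Reg4, -1.06, limma adjusted p = 0.00667), where 1940 in place of 10 of all genes were called. The estimation of those weights stopped before its convergence tolerance was reached. Leaving out single arrays gave 2 to 4 called Reg genes for IL10KO against WT, 2 to 3 for DKO against IL10KO, 2 for the difference of IL-10 effects and 0 for the other comparisons. The cause was not tested. Reg4 between IL10KO and WT was also lost with array weights (limma adjusted p = 0.0698) and without the high acinar (limma adjusted p = 0.0964) or high squamous arrays (limma adjusted p = 0.0746), and Reg3a and Reg3d were not tested once the dimmest genes were dropped. Counts over all genes ranged from 84 with Holm adjustment to 3070 without IL10KO replicate 2 for IL10KO against WT (1805 as reported), from 66 with Holm adjustment to 2605 without the high squamous arrays for DKO against IL10KO (1284), from 8 with Holm adjustment to 736 with array weights for the difference of IL-10 effects (143), from 5 with Holm adjustment to 69 without the library labelled WT replicate 3 for DKO against WT (10), and from 0 to 55 without that library for SKO against WT (0). No paired analysis was possible because the labels give the groups no shared replicate numbers.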

Other observations

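Antimicrobial and barrier proteins other than the Reg lectins moved in both directions. Of 28 measured genes, 6 rose and 3 fell in IL10KO against WT. The secreted phospholipase gene Pla2g2a rose by 3.35, the protease inhibitor gene Slpi by 3.28 and the siderophore-binding lipocalin gene Lcn2 by 2.97, and Ang4, an antimicrobial ribonuclease, fell by 4.82. In DKO against IL10KO, 4 rose and 5 fell, with Ang4 (5.43), the pentraxin gene Mptx1 (3.06) and the resistin-like gene Retnla (2.66) higher and Lcn2 (-3.06) lower, and 2 rose without DKO replicate 1. Ang4 averaged 11.39 ± 0.56 in DKO, 5.96 ± 1.60 in IL10KO, 10.83 ± 0.38 in SKO and 10.78 ± 0.41 in WT (SD, n = 3 each).

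Of 10 measured Paneth cell markers, 3 rose in IL10KO against WT, namely Mmp7 (3.02), the lysozyme gene Lyz1 (2.30) and the pentraxin gene Mptx2 (0.81), and 1, Ang4, fell. In DKO against IL10KO, Mmp7 (-3.48) and Lyz1 (-2.16) were lower and Ang4 was higher. The number that fell in IL10KO was 2 without WT replicate 1, SKO replicate 1, SKO replicate 2 or both high acinar arrays, and 5 rose without both high squamous arrays. Slpi had means of 7.22 ± 0.26 in DKO, 9.62 ± 0.09 in IL10KO, 6.84 ± 0.23 in SKO and 6.34 ± 0.23 in WT (SD, n = 3 each). Its difference did not pass between DKO and WT (0.88, limma adjusted p = 0.223) or between DKO and SKO (0.38, limma adjusted p = 0.998). Of 15 colonocyte markers, 5 fell in IL10KO against WT and 7 rose in DKO against IL10KO, and of 18 squamous markers 12 rose and 6 fell in the same comparisons. The 5 colonocyte markers were 3 without WT replicate 1 and 2 without both high acinar arrays, and the 7 were 3 without DKO replicate 1 or 2 and 4 without both high squamous arrays. The 12 squamous markers numbered 6 on leaving out IL10KO replicate 3, 7 on leaving out the library labelled WT replicate 3, 0 without both high acinar arrays and 2 without both high squamous arrays, and the 6 were 16 without IL10KO replicate 1, 3 without DKO replicate 1 or 2 and 1 without both high squamous arrays.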
